A study of Mus musculus with 12 samples.

Results

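The inward rectifier, leak and calcium-activated potassium channels of the mouse brain were described in the hippocampus (HC) and the anterior cingulate cortex (ACC) of trained and control mice. Genes were taken by symbol, as every inward rectifier (Kcnj), tandem-pore leak (Kcnk), small and intermediate conductance (Kcnn), large conductance (Kcnma, with its beta subunits Kcnmb), sodium-activated (Kcnt) and Kcnu gene on the array, which gave 41 of 27381 genes. RNA was measured on 12 Affymetrix Mouse Gene 2.0 ST arrays, each hybridised with RNA pooled from 7 mice (HC) or 5 mice (ACC), with 3 pools per group. The 4 groups were HC trained, HC control, ACC trained and ACC control, and the values were log2 expression. The mice were C57B16/J, as the labels spell it, and were head-fixed by surgery at 8 to 12 weeks of age, recovered for 7 days and were water-deprived on an air-cushioned ball. Trained mice learned to answer a visual cue for a water reward over 27 ± 2.6 days on average, whereas control mice had the same handling and received water at random intervals. Pools 1 and 2 of every group carried the label batch 1, and pool 3 carried batch 2. The labels count 16 male and 18 female mice, which is fewer than the 6 HC pools would need if each held 7 different mice. The methods state a larger number, so how many mice stand behind the pools is uncertain. The paper states that each trained mouse had a same-sex littermate as its control, and that both regions were dissected from the mice. Which mice entered which pool was not given in the labels. The fit therefore treated the pools as independent and did not use this pairing, and p-values measured the spread between these pools.

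Potassium channels hold the resting potential of neurons and glia and end their electrical responses. Inward rectifiers pass potassium more easily into the cell than out of it, and some open only when G protein beta-gamma subunits bind or when ATP falls. Tandem-pore leak channels are open at rest, while the calcium-activated and sodium-activated channels open after the ion entry that accompanies spikes and shape the afterhyperpolarisation that follows.

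Marker genes were read first, to set the labelled regions against their known neurons. Hippocampal subfield neurons were represented by 9 genes, of which 7 had higher expression in HC, with a list mean of 6.63 to 6.90 in HC pools, against 4.70 to 4.88 in ACC pools. Of 10 genes of cortical layer neurons, 8 were lower and 1 was higher in HC. The list mean was 6.68 to 6.99 in HC pools, against 7.53 to 7.65 in ACC pools. Several lists of non-neuronal cells also differed, while 9.71% of all genes were higher in HC. Higher in HC were 11 of 11 oligodendrocyte, 10 of 10 choroid plexus, 8 of 12 astrocyte and 5 of 7 ependymal genes. Few were higher in other such lists: 1 of 10 microglia, 1 of 10 pericyte and smooth muscle and 1 of 8 endothelial genes. Of 7 oligodendrocyte precursor genes, 5 were higher in HC (list mean 5.82 to 5.94 in HC pools, against 5.49 to 5.62 in ACC pools), and of 8 meningeal fibroblast genes 4 were higher and 1 lower (4.71 to 4.99 in HC pools, against 4.13 to 4.65 in ACC pools). Among 8 genes of thalamic neurons, 4 were higher and 1 lower in HC, and the list mean was 5.09 to 5.25 in HC pools, against 4.65 to 4.76 in ACC pools, without overlap. The mean of the oligodendrocyte list was 7.48 to 7.56 in HC pools, against 6.35 to 7.22 in ACC pools. Of 9 interneuron genes, 2 were lower in HC, 0 were higher and 7 were not called, with differences from -1.09 to 0.10. The mean of that list was 6.44 to 6.52 in HC pools, against 6.63 to 6.81 in ACC pools. In pooled tissue, fewer cells of a type and less RNA per cell cannot be told apart, and the part of these lists in the channel differences was not tested.

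Upstream sequence is shown for the 5 called members whose promoter window in RefSeq (mouse build GRCm38.p6) ends at the gene's outermost start, so that the letters lie before the transcript. Each run is the 150 bases before the start, read 5′ to 3′ on the gene's strand. The first 2 genes were higher in HC and the other 3 were lower. Capitals mark the TATA motif with the letters TATAAA. They also mark the GC-rich motif bound by Sp factors, written GGGCGG, and a homeodomain motif of the OTX type, written GGATTA. All motifs were searched on both strands.
Kcnj13: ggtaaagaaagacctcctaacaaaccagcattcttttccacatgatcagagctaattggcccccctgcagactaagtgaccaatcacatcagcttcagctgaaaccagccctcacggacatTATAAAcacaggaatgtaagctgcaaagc
Kcnn3: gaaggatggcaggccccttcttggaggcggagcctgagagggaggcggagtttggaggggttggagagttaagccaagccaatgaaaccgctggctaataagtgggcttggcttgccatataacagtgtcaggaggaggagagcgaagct
Kcnj9: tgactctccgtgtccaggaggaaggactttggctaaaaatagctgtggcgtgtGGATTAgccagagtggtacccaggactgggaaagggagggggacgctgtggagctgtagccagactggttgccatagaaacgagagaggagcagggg
Kcnj2: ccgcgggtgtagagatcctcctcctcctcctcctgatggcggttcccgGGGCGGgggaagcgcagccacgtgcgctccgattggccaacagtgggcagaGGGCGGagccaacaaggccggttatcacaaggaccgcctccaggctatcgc
Kcnk12: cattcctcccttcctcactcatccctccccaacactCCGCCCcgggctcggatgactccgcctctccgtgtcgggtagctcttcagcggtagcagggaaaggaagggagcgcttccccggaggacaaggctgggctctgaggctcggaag
Kcnj13 lay at chr1:87394730-87394879 (minus strand), Kcnn3 at chr3:89520014-89520163 (plus strand), Kcnj9 at chr1:172329323-172329472 (minus strand), Kcnj2 at chr11:111066014-111066163 (plus strand) and Kcnk12 at chr17:87797995-87798144 (minus strand). Among the 5 windows, Kcnj13 alone held TATAAA, whose first base lay 29 bases before the start, and 7.57% of 32851 mouse windows of the same length held it on either strand. GGGCGG was found 2 times in Kcnj2 and 1 time in Kcnk12, in its reverse form CCGCCC there, and 28.6% of all windows held it. GGATTA was found in Kcnj9, against 3.6% of all windows. CANNTG (E-box) was found 2 times in Kcnj13 and 1 time in Kcnj2, against 47.7% of all windows, and TGACG (core of the cAMP response element) in none of the 5, against 13.3% of all windows. The share of G and C was 46% in the Kcnj13 window, 56.7% in Kcnn3 and in Kcnj9, 67.3% in Kcnj2 and 64.7% in Kcnk12, against a median of 54% over all windows. These are matches of letters only. RefSeq windows were at hand for 33 of the 41 genes (42 windows), of which 15 windows held GGGCGG and 2 held TATAAA.

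Of the 41 channel genes, 30 had a mean above 2.76, the 95th percentile of 1365 odorant and vomeronasal receptor genes, which stood for background (their median was 1.42). The other 11 were at background: Kcnj1, Kcnj5, Kcnj15, Kcnk5, Kcnk7, Kcnk15, Kcnk16, Kcnk18, Kcnmb3, Kcnn4 and Kcnu1. This group holds channels known mainly from other organs, such as Kcnj1 of the kidney, Kcnk16 of the pancreas, Kcnk18 of sensory neurons and Kcnu1 of sperm.

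HC was compared with ACC first, over trained and control pools together, with limma across all genes and Benjamini-Hochberg adjustment at 0.05. Lower expression in HC was the commoner direction among these channels: 14 of 41 (34.1%) were lower in HC, against 8.74% of all genes tested. Higher expression in HC was called for 3 of 41 (7.32%), against 9.71% of all genes. The 6 HC pools and the 6 ACC pools did not overlap for 15 of the 41 (36.6%), against 11.1% of all genes. The same shares were also taken above background alone: 14 of 30 members (46.7%) were lower and 3 (10%) higher, against 12.3% and 15.4% of the 16048 genes above background. The median difference, HC minus ACC, was -0.059 over the 41 members and -0.013 over all genes. A like share was seen in other channel families, with 16 of 47 voltage-gated potassium channel genes (34%) and 13 of 39 voltage-gated calcium, sodium and HCN channel genes (33.3%) lower in HC. Higher calls numbered 6 and 7 in those 2 families, and differences between families were not tested.

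**Figure D1:**
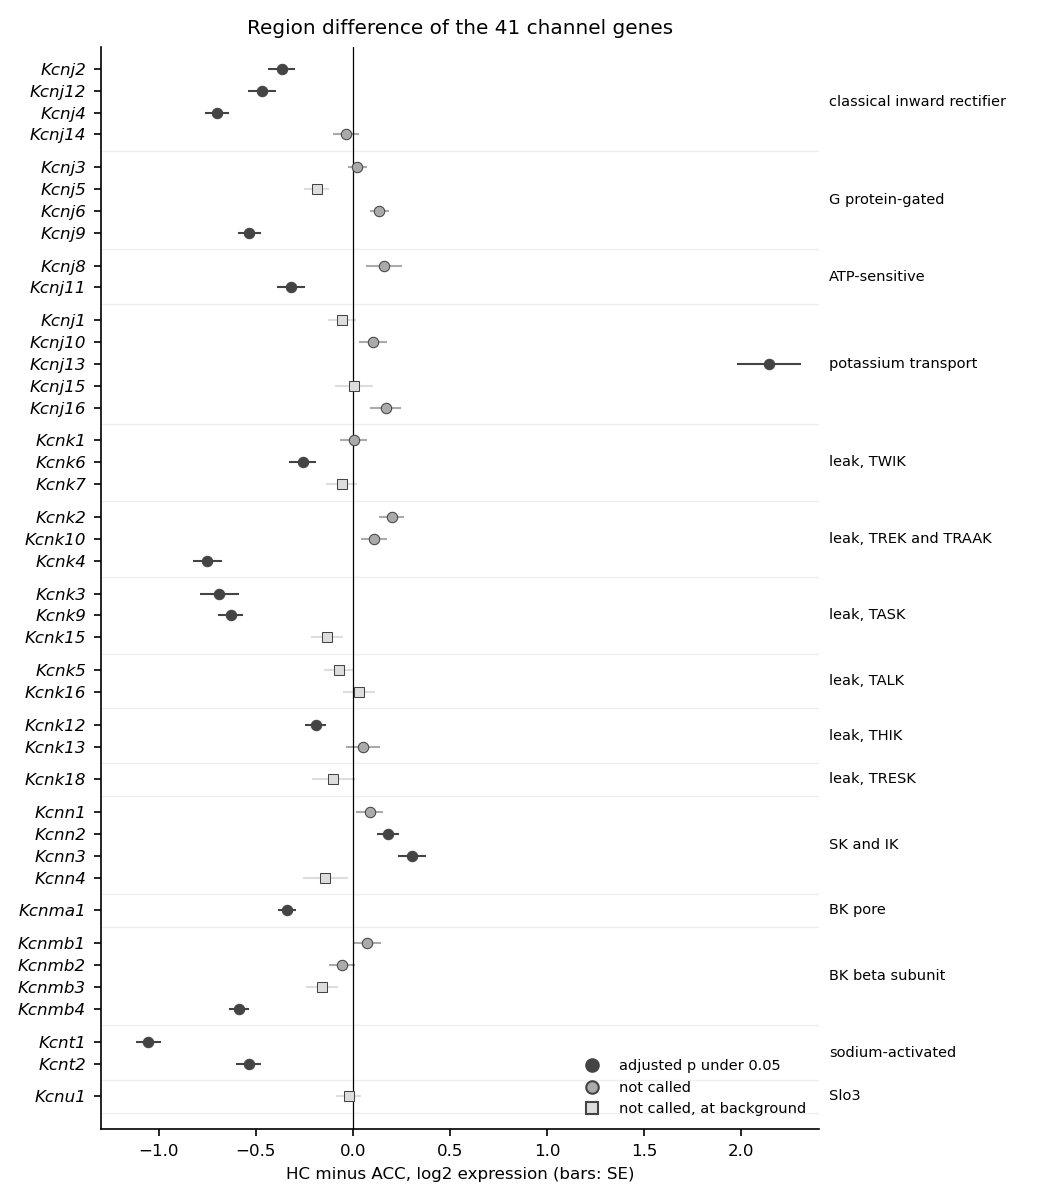
Difference in log2 expression, HC minus ACC, of the 41 channel genes (rows, by family), with bars of 1 standard error. Dark points passed the adjusted threshold; 14 lie left of 0 and 3 right of 0, from -1.05 (Kcnt1) to 2.14 (Kcnj13), and squares are genes at background.

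The classical inward rectifiers, which stabilise the resting potential of neurons and muscle, had 3 of 4 members lower in HC. Kcnj4 ranged over 5.72, 5.84 and 6.02 (lowest, median and highest pool) in HC, against 6.43, 6.56 and 6.66 in ACC, a difference of -0.70 ± 0.064 (SE, adjusted p = 5.91e-06). Kcnj12 had 4.20, 4.25 and 4.47 in HC, against 4.62, 4.70 and 5.01 in ACC (difference -0.47 ± 0.072, adjusted p = 4.77e-04). Kcnj2 had 3.89, 4.07 and 4.26 in HC, against 4.38, 4.42 and 4.57 in ACC (difference -0.37 ± 0.069, adjusted p = 0.00223). In each of these 3 genes every HC pool was below every ACC pool. Within batches, Kcnj2 differed by -0.43 in batch 1 and by -0.25 in batch 2. The fourth member, Kcnj14, was not called (difference -0.04, 95% interval -0.18 to 0.11).

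Among the G protein-gated inward rectifiers, through which GABA-B, serotonin and other receptors slow firing, 1 of 4 members was called. Kcnj9, a subunit that reaches the membrane with other subunits of this family, had 6.77, 6.88 and 7.02 in HC, against 7.37, 7.42 and 7.52 in ACC, a difference of -0.53 ± 0.059 (adjusted p = 3.36e-05), or 1.45-fold lower. All HC pools lay below all ACC pools. Its main partners did not pass the test: Kcnj3 had a difference of 0.02 (95% interval -0.082 to 0.126), and Kcnj6 of 0.13 (0.030 to 0.239, adjusted p = 0.073), although the lowest HC pool of Kcnj6 (5.744) was just above its highest ACC pool (5.742). Kcnj5, the cardiac member, was at background.

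Genes that act upstream of these channels differed in both directions. In the 3 lists that follow, in order, 18.8%, 15.8% and 20% of genes were higher in HC. The lower shares were 43.8%, 26.3% and 60%. Of all genes above background, 15.4% were higher and 12.3% lower. Of 16 receptors known to open G protein-gated rectifiers, 3 were higher and 7 lower in HC. Those with the smallest p were Htr1a, an inhibitory serotonin receptor (1.28 ± 0.088), Sstr2, a somatostatin receptor (-0.81 ± 0.060), and Oprd1, the delta opioid receptor (-0.68 ± 0.060). Of 19 G protein subunits, RGS proteins and KCTD proteins, 3 were higher and 5 lower, led by Rgs6 (-1.46 ± 0.078), which speeds deactivation of the channel current, Kctd12 (1.10 ± 0.065), an auxiliary subunit of GABA-B receptors, and Rgs4 (-1.10 ± 0.091). For phosphatidylinositol bisphosphate, the membrane lipid that inward rectifiers need for their activity, 1 of 5 enzymes of its supply and breakdown was higher and 3 were lower. The phospholipase Plcb4 differed by -0.87 ± 0.052, and of the lipid kinases Pip5k1b differed by 1.24 ± 0.084 and Pip5k1c by -0.49 ± 0.056. Both directions occurred within each of these 3 lists.

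The ATP-sensitive channel couples firing to the energy state of the cell. Its neuronal pore gene Kcnj11 had 5.48, 5.70 and 5.80 in HC, against 5.76, 6.01 and 6.11 in ACC, a difference of -0.32 ± 0.071 (adjusted p = 0.00639). The highest HC pool (an HC control pool) overlapped the lowest ACC pool (an ACC trained pool), and with batch 1 alone the gene was no longer called (adjusted p = 0.107). Kcnj8, the vascular pore gene, had a difference of 0.16 (95% interval -0.04 to 0.36), and the list of 10 pericyte and smooth muscle genes had a mean of 5.20 to 5.31 in HC pools, against 5.08 to 5.35 in ACC pools. Neither of the 2 sulfonylurea receptor genes that complete the channel was called (differences from -0.060 to -0.009).

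The rectifiers of potassium transport in glia and epithelia held the highest positive difference of all 41 genes. Kcnj13, a rectifier of the choroid plexus epithelium, had 4.86, 5.81 and 6.28 in HC, against 3.29, 3.58 and 3.89 in ACC, a difference of 2.14 ± 0.166 (adjusted p = 1.42e-06), or 4.41-fold higher. By pool it read 5.77, 4.86 and 5.86 in HC trained, 5.75, 6.28 and 5.86 in HC control, 3.89, 3.47 and 3.56 in ACC trained, and 3.29, 3.71 and 3.61 in ACC control. HC pools were all above ACC pools, and pool 2 of HC trained was the lowest HC pool. The choroid plexus list was also higher in HC. Its mean over 10 genes was 4.40 to 4.98 in HC trained and 4.84 to 5.04 in HC control. In ACC it was 3.07 to 3.17 in trained and 3.13 to 3.19 in control pools. HC trained pool 2 was the lowest HC pool for the list too. The other HC pools did not keep the same order on both. HC control pool 2 had the highest Kcnj13 (6.28) with a list mean of 4.84. HC control pool 1 had the highest list mean (5.04) with a Kcnj13 of 5.75. All 10 list genes were higher in HC, from Ttr, the transthyretin gene (5.42), to Aqp1, a water channel (0.49), while Otx2 and Cldn2 had means at background. The part of choroid plexus content in the Kcnj13 difference was not tested.

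**Figure D2:**
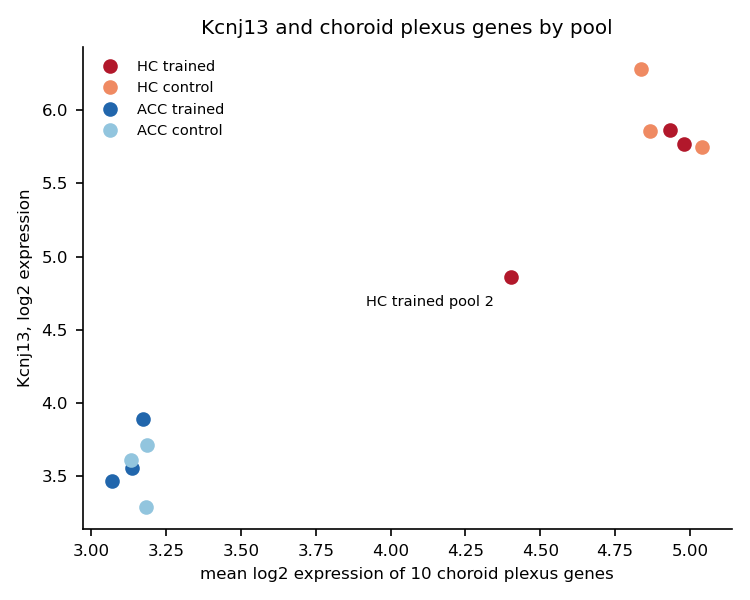
Log2 expression of Kcnj13 (vertical) against the mean log2 expression of 10 choroid plexus genes (horizontal) in each of the 12 pools, coloured by group. HC pools lie at 4.86 to 6.28 and ACC pools at 3.29 to 3.89 for Kcnj13, and HC trained pool 2 is the lowest of HC on both axes. The other HC pools do not keep the same order on both axes.

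Kcnj10 and Kcnj16, which form the potassium-buffering channel of astrocytes, did not pass the test. Kcnj10 had 7.34, 7.66 and 7.79 in HC, against 7.44, 7.53 and 7.60 in ACC (difference 0.10, 95% interval -0.05 to 0.25). Kcnj16 had 5.22, 5.42 and 5.60 in HC, against 4.99, 5.30 and 5.37 in ACC (difference 0.17, 95% interval -0.005 to 0.34). For both genes the HC and ACC pools overlapped. The astrocyte list, by contrast, had a mean of 7.57 to 7.68 in HC, against 7.07 to 7.21 in ACC. It shares Aqp4, Gja1, Gjb6, Slc1a2 and Slc1a3 with the partner list that follows, so the lists are not separate observations. Of 10 partners of astrocyte potassium and water handling, 4 were higher and 1 lower in HC, among them the connexin Gja1 (0.52 ± 0.049), the water channel Aqp4 (0.72 ± 0.080) and dystrophin, Dmd (-0.31 ± 0.056). Of 5 sodium pump and cation-chloride transporter genes, the importer Slc12a2 was higher (0.56 ± 0.078) and the neuronal exporter Slc12a5 lower (-0.33 ± 0.060). Kcnj1 and Kcnj15 were at background.

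Leak channels were lower in HC in 5 of 14 genes and higher in none, and each call fell in a subfamily with uncalled members. Kcnk4, the TRAAK channel that opens to membrane stretch and sits at nodes of Ranvier, had 5.45, 5.57 and 5.76 in HC, against 6.15, 6.40 and 6.44 in ACC, a difference of -0.75 ± 0.075 (adjusted p = 1.31e-05). Its relatives of the TREK type ran the other way in sign and were not called: Kcnk2 had a difference of 0.20 (95% interval 0.058 to 0.339, adjusted p = 0.0511) and Kcnk10 of 0.11 (-0.034 to 0.251). Kcnk2 lay at 5.95, 6.09 and 6.16 in HC, against 5.76, 5.86 and 5.99 in ACC, so that its pools overlapped slightly. Kcnk2 was near the threshold and passed in some other settings, among them another variance model (adjusted p = 0.0337) and several fits that left out 1 pool.

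The acid-sensitive TASK channels, background conductances that neurotransmitters close through G proteins, had both genes above background lower in HC. Kcnk3 had 4.87, 4.99 and 5.39 in HC, against 5.52, 5.67 and 6.05 in ACC (difference -0.69 ± 0.101, adjusted p = 3.23e-04). Kcnk9 had 5.78, 5.87 and 6.06 in HC, against 6.29, 6.54 and 6.64 in ACC (difference -0.63 ± 0.066, adjusted p = 1.95e-05). The regions did not overlap for either gene. For Kcnk3 the batches differed in size, with -0.83 in batch 1 and -0.40 in batch 2. Kcnk15, a TASK relative that carries no known current alone, was at background.

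Smaller differences were found in the remaining leak channels. Kcnk6, of the TWIK type, had 4.71, 4.96 and 5.04 in HC, against 4.99, 5.14 and 5.35 in ACC (difference -0.26 ± 0.072, adjusted p = 0.0227), with overlap between HC pools and ACC trained pools. Kcnk12, of the THIK type, differed by -0.19 (adjusted p = 0.0282). Both calls were sensitive to single pools: Kcnk6 was lost in 4 and Kcnk12 in 9 of 20 other settings, 3 and 7 of which left out 1 pool. Kcnk1, the abundant TWIK channel of neurons and glia, had a difference of 0.003 (95% interval -0.146 to 0.152). Kcnk13, a THIK channel of microglia, had a difference of 0.05 (-0.137 to 0.242), while the list of 10 microglia genes had a mean of 5.19 to 5.28 in HC, against 5.07 to 5.27 in ACC. Kcnk5, Kcnk7, Kcnk16 and Kcnk18 were at background.

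The small (SK) and intermediate conductance calcium-activated channels had 2 of 4 members higher in HC and none lower. SK channels carry the medium afterhyperpolarisation. Kcnn3 had 6.19, 6.26 and 6.41 in HC, against 5.63, 6.01 and 6.12 in ACC, a difference of 0.30 ± 0.072 (adjusted p = 0.01), or 1.23-fold higher, with no overlap of the regions. With batch 1 alone its adjusted p was 0.0533. Kcnn2, the SK channel of dendritic spines, differed by 0.18 (adjusted p = 0.0391) and lost the call in 12 of 20 other settings. Kcnn1 had a difference of 0.08 (95% interval -0.064 to 0.234), and Kcnn4, the intermediate conductance channel of blood cells and epithelia, was at background. None of 4 genes for calmodulin, the calcium sensor of SK channels, and its kinase partner passed the test (differences from -0.130 to 0.057).

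Large conductance (BK) channels, gated by both voltage and calcium, were lower in HC in their pore gene and in the neuronal beta subunit. Kcnma1, the pore, had 8.21, 8.28 and 8.36 in HC, against 8.57, 8.63 and 8.64 in ACC (difference -0.34 ± 0.047, adjusted p = 2.04e-04). Kcnmb4, the beta subunit that slows gating in neurons, had 6.94, 7.14 and 7.20 in HC, against 7.62, 7.69 and 7.83 in ACC (difference -0.59 ± 0.054, adjusted p = 5.89e-06). All HC pools were below all ACC pools in both genes. Kcnmb1, the smooth muscle subunit (difference 0.07, 95% interval -0.084 to 0.226), and Kcnmb2, an inactivating subunit (-0.06, -0.203 to 0.091), were not called, and Kcnmb3 was at background. Of 5 gamma and associated subunits, none was higher and 2 were lower, Lingo1 (-0.35 ± 0.070) and Lrrc26 (-0.29 ± 0.059).

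The sodium-activated channels were both lower in HC, and Kcnt1 had the most negative difference of the 41 genes. Kcnt1 (SLACK) had 5.88, 6.02 and 6.16 in HC, against 6.88, 7.06 and 7.30 in ACC, a difference of -1.05 ± 0.064 (adjusted p = 1.88e-07), which made it 2.08-fold lower. Kcnt2 (SLICK), which can join it in one channel, had 6.43, 6.52 and 6.69 in HC, against 7.01, 7.08 and 7.23 in ACC (difference -0.54 ± 0.064, adjusted p = 5.91e-05). Every HC pool was below every ACC pool in both genes. Kcnu1, a relative expressed in sperm, was at background (difference -0.02).

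**Figure D3:**
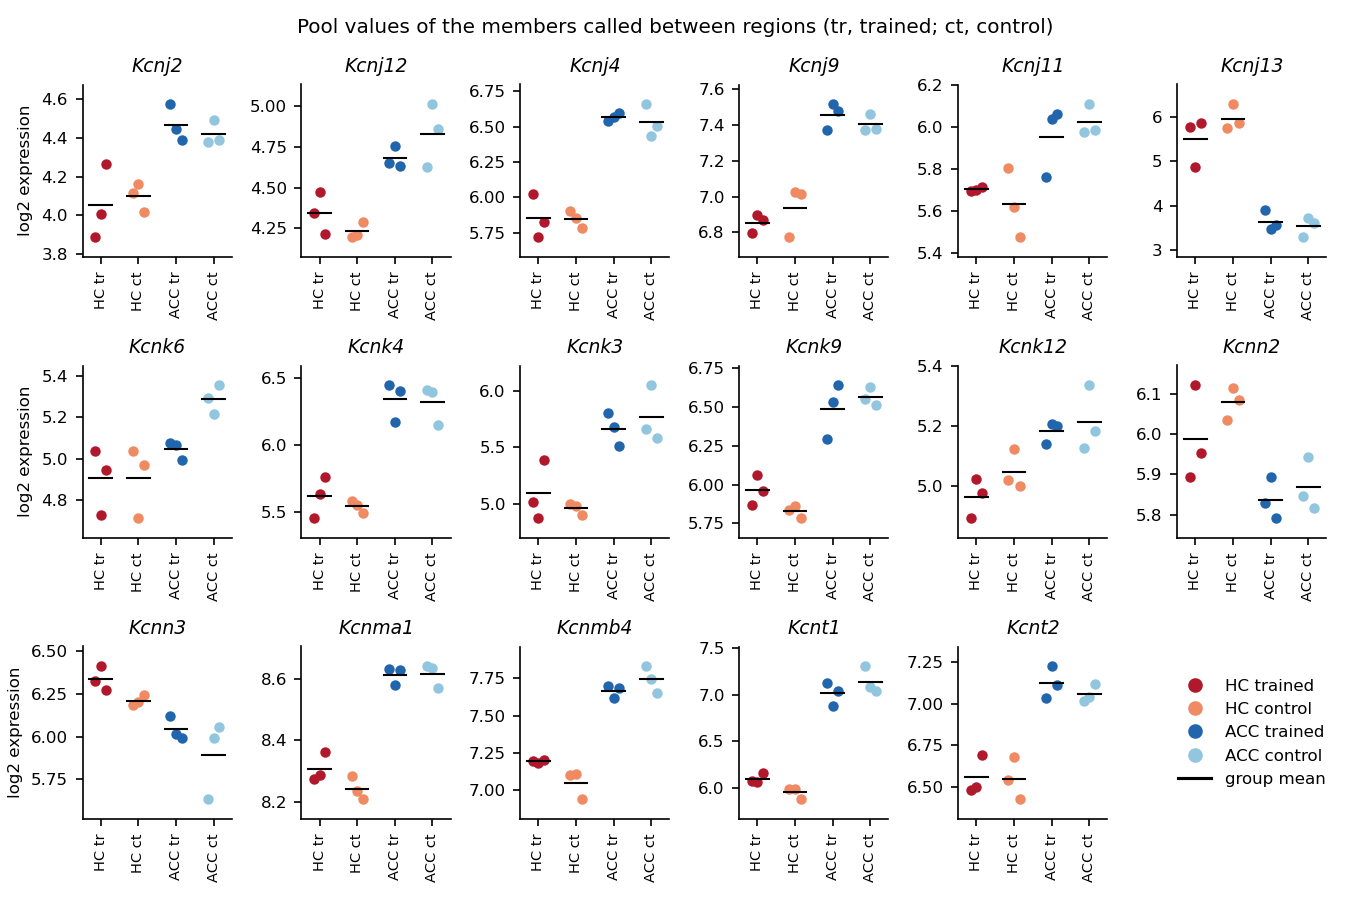
Log2 expression of the 17 channel genes called between the regions, 1 panel per gene with its own vertical axis, in the 3 pools of HC trained, HC control, ACC trained and ACC control. Points are pools and bars are group means; in 14 lower genes such as Kcnt1 the HC points sit below the ACC points, with overlap in Kcnj11 and Kcnk6, and in Kcnj13, Kcnn2 and Kcnn3 they sit higher, with overlap in Kcnn2.

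The region difference was then taken within trained and within control mice. Among trained mice 11 of 41 members were called (1 higher and 10 lower, 26.8%), against 9.3% of all genes. Among control mice 14 of 41 were called (1 higher and 13 lower, 34.1%), against 13.3% of all genes. All 17 called genes had the same sign in trained and in control mice, and in batch 1 and in batch 2, which their call on all pools together favours. Over all 41 members, 29 had the same sign of the region difference in both batches. Kcnj13 was the single higher call in each, with 1.86 among trained and 2.42 among control mice, and Kcnt1 differed by -0.92 among trained and by -1.19 among control mice. None of the members had a region difference that depended on training at the adjusted threshold.

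**Figure D4:**
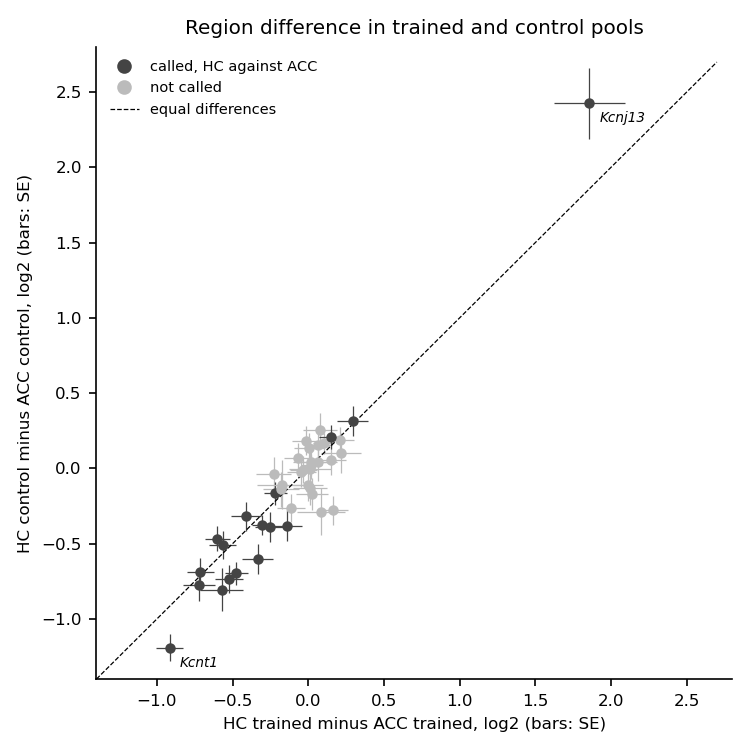
Difference in log2 expression between HC and ACC of each channel gene among trained mice (horizontal) and among control mice (vertical), with bars of 1 standard error and a dashed line of equal differences. The 17 called genes (dark) have the same sign on both axes, and Kcnj13 lies at 1.86 and 2.42.

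Training was compared with its control within each region. No member passed the adjusted threshold in HC or in ACC (0 of 41, against 0% of all genes), and none for the difference between regions in the training effect (0 of 41, against 0% of all genes). The lowest adjusted p of a member was 0.546 in HC, 0.683 in ACC and 0.368 for that difference. At an unadjusted p under 0.05, 4 of 41 members (9.76%) were found in HC, against 6.82% of all genes. Of these, Kcnj5, Kcnk5 and Kcnk15 were at background. Above background, 1 of 30 members was found in HC, against 487 higher and 471 lower of 16048 genes. In ACC it was 1 of 41 (2.44%), against 6.95% of all genes, and for the difference between the regions 1 of 41 (2.44%), against 8.86% of all genes. Trained and control pools did not overlap for 8 of 41 members in HC (19.5%), against 12.3% of all genes, and for 2 of 41 in ACC (4.88%), against 11.6% of all genes. The training difference had the same sign in both batches for 22 of 41 members in HC and for 17 of 41 in ACC.

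The members with the smallest unadjusted p were looked at by pool. Kcnmb2 had 3.74, 3.54 and 3.64 in HC trained, against 3.33, 3.49 and 3.29 in HC control, a difference of 0.28 (95% interval 0.069 to 0.485, adjusted p = 0.573). In ACC it had 3.35, 3.45 and 3.63 in trained pools, against 3.72, 3.67 and 3.54 in control pools, a difference of -0.17 (-0.375 to 0.041). The groups were apart in HC and overlapped in ACC, where batch 1 gave -0.30 and batch 2 gave 0.10. The difference between the 2 training effects of Kcnmb2, HC minus ACC, was 0.44 (adjusted p = 0.368), followed by Kcnt1 (0.27) and Kcnmb4 (0.22). The other 2 genes named in HC, Kcnk15 (-0.36) and Kcnk5 (0.25), were at background, so no change was read from them.

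In ACC, Kcnk6 had 5.08, 5.07 and 4.99 in trained pools, against 5.29, 5.21 and 5.35 in control pools, a difference of -0.24 (95% interval -0.460 to -0.021, adjusted p = 0.683), with the groups apart. Its difference in HC was -0.001 (-0.220 to 0.219). Kcnu1 (0.19 in ACC) was at background. The widest training difference in either region was that of Kcnj13 in HC, -0.46 (-0.975 to 0.045), with -0.70 in batch 1, which holds the low pool 2 of HC trained, and 0.007 in batch 2. For the other 29 genes above background the training differences lay between -0.24 and 0.28.

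**Figure D5:**
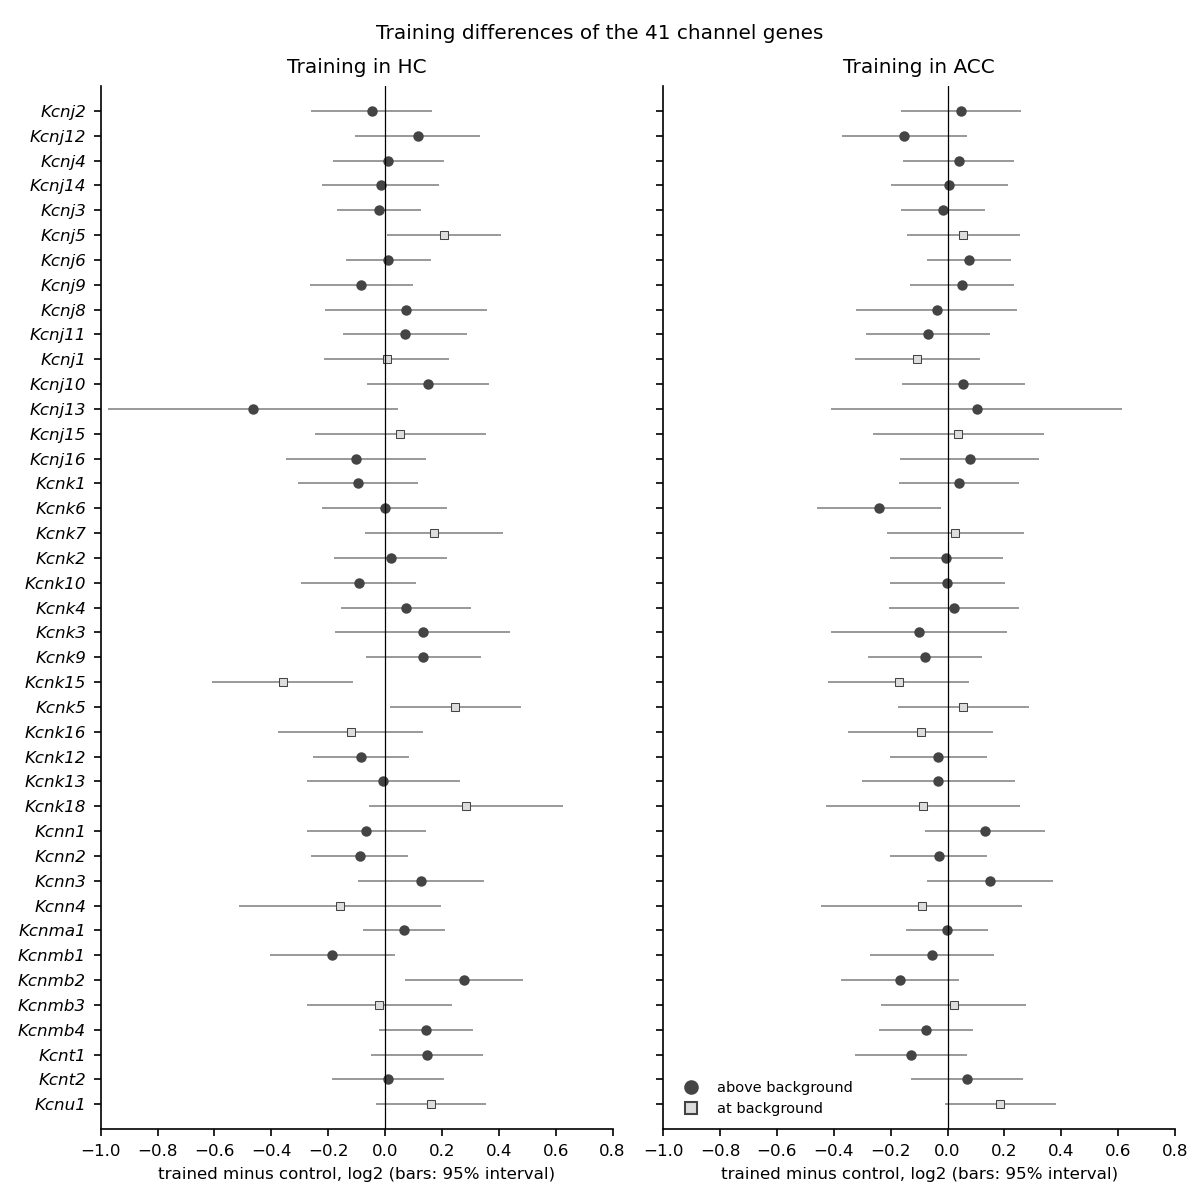
Difference in log2 expression, trained minus control, of each channel gene in HC (left) and ACC (right), with 95% intervals. No gene passed the adjusted threshold, and among genes above background only Kcnmb2 in HC (0.28) and Kcnk6 in ACC (-0.24) have intervals that leave out 0.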

How the data were processed

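RNA of 12 pools was hybridised to Affymetrix Mouse Gene 2.0 ST arrays. The deposited values are log2 expression, which the authors made by Robust Multiarray Average (RMA in the submitters' processing notes, affy 1.62.0, R 3.6.0) on probe sets redefined so that each Entrez gene has 1. The methods state that the repeat pools were analysed together with the earlier ones. Whether this means that all arrays were normalized together, and whether batch was adjusted for, is not given in the sources used here. The labels count 16 male and 18 female mice, fewer than the stated pool sizes need without reuse of mice and fewer than the paper gives. The methods describe the first pools of each condition as unique, and so as biological replicates. No source gives the mice of each pool. All columns were matched to their pool by label. Symbols came from the platform annotation, in which 26794 of 27381 probe sets have 1 symbol and 587 have none.

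A model of 4 group means without covariates was fitted to all genes with limma 3.58.1 (lmFit, eBayes, R 4.3.3), with Benjamini-Hochberg adjustment over 27381 genes at 0.05 and no filter. The HC against ACC comparison averaged trained and control groups. The test was checked on simulated data with independent noise between pools, without batch or pairing of mice. No power for small differences was read from that check. Fold changes are powers of the log2 difference, and levels were not compared between genes, since probe sets differ in response. Background was the 95th percentile of 1365 receptor genes. The precision is limited by 3 pools per group, and arrays carry no sequencing depth.

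The members and the lists of partners and cell type markers (66 of 76 partner genes measured) were chosen with earlier results of these data known. Named with pool values by rule were members called between the regions with a difference of at least 0.25, and for training the 3 members with the smallest p. Pool values of Kcnj10, Kcnj16 and Kcnk2, and single pools of Kcnj6, were added after their values were seen. From each partner list the called genes with the 3 smallest p were named. Other settings were a block for batch, a block for replicate number, batch 1 alone, each array left out, another variance model, array weights, 2 other normalizations, brighter genes alone, and the arrays of the compared groups alone. Promoter windows are from RefSeq (GRCm38.p6), and motifs were searched in the 150 bases before the start. The probe sets' own build is not given in the sources used here.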

Additional observations from a re-analysis of the deposited data

Results flagged for a closer look

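In the 17 genes called between the regions, the highest and lowest of the 6 pools of each region were set against the rest, over 34 sets of 6 pools that mix trained and control. In 4 of them the gap from 1 pool to the next was wide for the range of its region by Dixon's criterion, where chance alone gives about 1 in 20.

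Kcnj13 was 4.86 in HC trained pool 2, and the next HC pool was 5.75 (gap 0.63 of the range). Kcnk3 was 5.39 in HC trained pool 3, and the next HC pool was 5.02 (gap 0.723 of the range). Kcnk9 was 6.29 in ACC trained pool 1, and the next ACC pool was 6.51 (gap 0.641 of the range). Kcnn3 was 5.63 in ACC control pool 1, and the next ACC pool was 5.99 (gap 0.734 of the range). Each of these 4 genes kept its call with that pool left out.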

How the results depend on the processing

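Of the 17 genes called between HC and ACC, 12 kept their call and sign under all 20 alternatives. Kcnj11 and Kcnn3 lost it with batch 1 alone, Kcnk6 in 4, Kcnk12 in 9 and Kcnn2 in 12 alternatives. No sign turned. With batch 1 alone, which has 2 pools per group, 9 members were called among control mice (14 with all pools) and 1 was higher in HC (3 with all pools). Members higher in HC numbered 5 after median centring of each array and 5 among brighter genes alone, where Kcnk2 and Kcnj6 passed as well (adjusted p = 0.0447 and 0.0404 after centring, 0.0292 and 0.0354 among brighter genes). Median centring moved the median difference of all genes to 0.0096, against -0.013 without it. Leaving out 1 pool gave 15 to 17 members between the regions. No member passed for training under any alternative. Deviations from the group means were correlated between same-numbered pools (18 correlations, -0.266 to 0.043). These were -0.266 to -0.184 between pools numbered 3, which are batch 2, and -0.123 to 0.043 between pools numbered 1 or 2. Whether same-numbered pools held paired mice cannot be told from these values, since it is not known whether batch was adjusted for. With the replicate block 17 members were called between the regions, 10 among trained and 13 among control mice, and 0 for training.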
